A study of Mus musculus with 4 samples.

Results

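The genes described here encode the intercalated disc, the structure that joins cardiac myocytes end to end. They are 10 genes taken by name: the connexins Gja1, Gja5 and Gjc1, the cadherins Cdh2, Dsg2 and Dsc2, the plaque proteins Dsp, Pkp2 and Jup, and the scaffold protein Tjp1. All 10 had a probe with a value on every array, out of 16390 genes named on the platform. They were covered by 11 probes, since Gjc1 had a second probe listed under its older symbol Gja7.

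Several kinds of contact make up the disc. Gap junctions, built of connexins, carry current and small molecules between myocytes. Adherens junctions couple actin filaments through N-cadherin and the catenins, and desmosomes couple the intermediate filament desmin through desmosomal cadherins, plakoglobin, plakophilin and desmoplakin. Mutations in human desmosomal genes are a known cause of arrhythmogenic cardiomyopathy, and loss or redistribution of connexins is a known feature of diseased myocardium.

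Total left ventricular RNA of C57BL/6 males aged 14 weeks was hybridised to 4 single-colour arrays. The groups were STIM1 KO mice after transverse aortic constriction (STIM1KO TAC), STIM1 KO mice after sham surgery (STIM1KO sham), WT mice after the constriction (WT TAC) and WT mice after sham surgery (WT sham), with 1 array each. The constriction, which loads the ventricle with pressure, was done at 10 weeks of age over a wire of 0.3 mm, and hearts were taken 4 weeks later. Heart weight over body weight averaged, per the labels and with no unit, 4.9 in STIM1KO TAC, 4.5 in STIM1KO sham, 6.7 in WT TAC and 4.1 in WT sham. The labels do not say how Stim1 was altered or how many animals gave the RNA of an array.

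With 1 array a group, no test and no SD can be given, and every value below compares arrays. The number of arrays limits the precision. Intensities are the deposited ones after quantile normalization between arrays, and a difference is a difference of their log2 values. Calls are sizes only: 1.5-fold (0.585 on the log2 scale) and 2-fold. A filter kept genes whose mean log2 intensity reached 4.87 (an intensity of 29.3). It kept 7020 genes, called the filtered genes below, and 9 of the 10 disc genes, all but Gja5.

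The arrays carried ventricular muscle. Of 10 ventricular myocyte markers, 8 passed the filter, Ryr2 was under its level and Actc1 had an empty cell. The summed intensity of the 9 with a value on every array was 249364 on STIM1KO TAC, 229652 on STIM1KO sham, 228280 on WT TAC and 214828 on WT sham. This sum leaned on a few very bright genes, among them Tnnt2, at 58086 on STIM1KO TAC and 38715 on WT TAC. Between the TAC arrays 3 of the 8 filtered myocyte markers were higher and 4 lower. Of 7 atrial markers 4 passed the filter. These were Nppa at 1136 to 1684, Stard10 at 117 to 153, Bmp10 at 85.4 to 177 and Dkk3 at 35.3 to 44.5. Under the filter by their mean were Myl4, at 20.9 to 32.3, and Myl7 and Sln, at 1.70 to 11.8. None of the 8 markers of the conduction system and none of the 8 of epicardium and mesothelium passed the filter. The summed intensity of 12 endothelial markers was 2527 on STIM1KO TAC, 2920 on STIM1KO sham, 3670 on WT TAC and 4018 on WT sham. That of 10 fibroblast markers was 3435 on STIM1KO TAC, 4177 on STIM1KO sham, 4726 on WT TAC and 5259 on WT sham. Stim1 itself was at 13.8 on STIM1KO TAC, 20.7 on STIM1KO sham, 33.9 on WT TAC and 41.6 on WT sham, so that both STIM1KO arrays were below both WT arrays. Its probe was under the filter level, and whether it lies in the part of Stim1 that was altered is unknown here, which limits it as a check of the genotypes.

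The 250 bases before the annotated start are shown for 3 of the 5 disc genes with an entry in the RefSeq promoter table of build GRCm38.p6, because they carry the 3 patterns described below: Gja1 was low on 1 array, Jup was lower in all 4 comparisons of 2 arrays, and Dsp hardly differed. Tjp1 and Gja5 also had an entry, and Gjc1, Cdh2, Pkp2, Dsg2 and Dsc2 are named only. Capitals mark matches, on either strand, to TGANTCA (the AP-1 site), GGGCGG (the GC box) and GGAAA (the core bound by NFAT factors).
Gja1 (chr10:56377050-56377299, plus strand): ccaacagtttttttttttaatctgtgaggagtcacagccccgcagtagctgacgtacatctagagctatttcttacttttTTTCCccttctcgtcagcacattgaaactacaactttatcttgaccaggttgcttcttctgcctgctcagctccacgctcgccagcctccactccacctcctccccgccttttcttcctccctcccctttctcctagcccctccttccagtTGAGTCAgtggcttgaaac
Jup (chr11:100397791-100398040, minus strand): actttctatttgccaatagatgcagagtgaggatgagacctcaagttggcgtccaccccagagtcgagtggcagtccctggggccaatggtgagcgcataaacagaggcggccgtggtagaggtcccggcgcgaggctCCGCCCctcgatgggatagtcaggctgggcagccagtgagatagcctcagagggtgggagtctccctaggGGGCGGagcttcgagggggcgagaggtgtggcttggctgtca
Dsp (chr13:38151044-38151293, plus strand): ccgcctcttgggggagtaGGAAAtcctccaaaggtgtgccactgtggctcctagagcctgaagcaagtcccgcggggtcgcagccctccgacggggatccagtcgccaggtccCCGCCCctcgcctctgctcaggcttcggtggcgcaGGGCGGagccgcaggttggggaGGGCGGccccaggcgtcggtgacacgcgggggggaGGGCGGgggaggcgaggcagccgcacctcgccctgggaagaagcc
The Gja1 window held 1 AP-1 match, starting 19 bases before the start, and 1 GGAAA match. The Jup window held 2 GC boxes and neither of the other motifs, and the Dsp window held 4 GC boxes and 1 GGAAA match. Over all 32851 windows of this length in the table, 6.75% held an AP-1 match, 32.7% a GC box and 55.6% GGAAA, and none of the 3 motifs overlapped another in the windows shown. These matches describe letters and say nothing of binding.

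Gja1, which encodes Cx43, the main gap junction protein of working ventricular muscle, had an intensity of 2123 on STIM1KO TAC, 1670 on STIM1KO sham, 2079 on WT TAC and 2151 on WT sham. The STIM1KO sham array was the low one, and the other 3 lay close together. Gja1 thus differed by 0.35 between STIM1KO TAC and STIM1KO sham and by -0.36 between STIM1KO sham and WT sham, while WT TAC and WT sham differed by -0.05 and the TAC arrays by 0.03. These 2 small differences changed sign under median centring or when deposited values were used, at most to 0.045 and -0.053.

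Gjc1 encodes Cx45, a connexin of the conduction system that the ventricular wall holds in small amounts. Its brighter probe gave 225 on STIM1KO TAC, 181 on STIM1KO sham, 176 on WT TAC and 163 on WT sham. Its dimmer probe gave 120 on STIM1KO TAC, 104 on STIM1KO sham, 137 on WT TAC and 119 on WT sham. Both probes were higher after TAC in each genotype, by 0.31 and 0.20 in STIM1KO and by 0.11 and 0.21 in WT. They disagreed on genotype, at 0.35 on the brighter and -0.19 on the dimmer between the TAC arrays, and 0.16 and -0.19 between the sham arrays. The direction of Gjc1 between genotypes is therefore not settled, and the 2 probes of this gene differed by up to 0.55 on the same pair of arrays.

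Gja5 encodes Cx40, the connexin of atrial myocytes, the conduction system and arterial endothelium. Its probe was at 1.88 on STIM1KO TAC, 3.31 on STIM1KO sham, 2.92 on WT TAC and 2.38 on WT sham, under the first quartile of the normalized probes, 7.7, on every array. The differences, -0.82 in the STIM1KO response and -0.64 between the TAC arrays, shrank to -0.26 and -0.19 with an offset before log2. No size can be read from so dim a probe.

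Tjp1 encodes ZO-1, a scaffold that binds the tail of Cx43 at the edge of gap junctions. It was at 41.2 on STIM1KO TAC, 45.2 on STIM1KO sham, 39.8 on WT TAC and 43.9 on WT sham. The highest value was 1.13-fold the lowest, the narrowest span among the 9 filtered disc genes, and only 7.5% of the filtered genes had a span as narrow. It was slightly lower after TAC in both genotypes, at -0.13 in STIM1KO and -0.14 in WT.

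**Figure D1:**
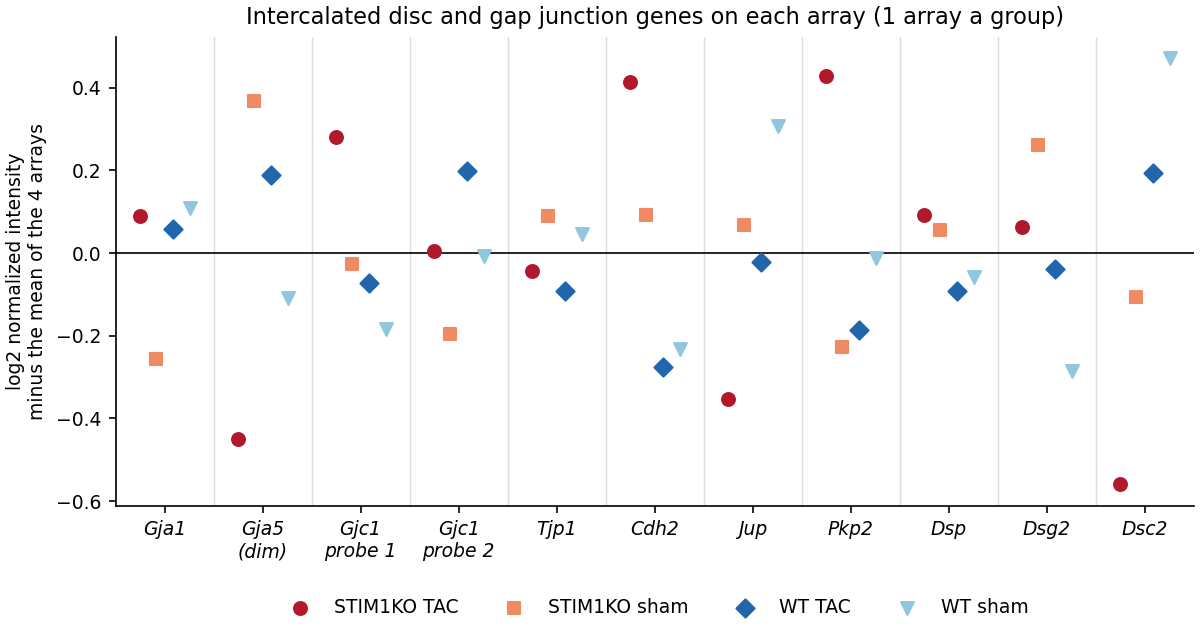
Log2 normalized intensity of each disc gene on the 4 arrays, minus the mean of that probe over the 4 arrays (vertical axis, log2 units), with 1 point an array. Cdh2 and Pkp2 stand highest on STIM1KO TAC, Dsc2 and Jup lowest there and highest on WT sham, and the dim Gja5 probe is shown for completeness.

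Cdh2 encodes N-cadherin, the adhesion molecule of the adherens junctions of the disc. Its intensity was 2305 on STIM1KO TAC, 1844 on STIM1KO sham, 1427 on WT TAC and 1473 on WT sham. Both STIM1KO arrays were above both WT arrays. The difference was 0.69 between STIM1KO TAC and WT TAC (1.62-fold) and 0.32 between STIM1KO sham and WT sham, at percentiles 96.3 and 90.1 of the filtered genes in each comparison. After TAC it was higher by 0.32 in STIM1KO, against -0.05 in WT, and this last value was 0.076 with deposited values.

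Jup encodes plakoglobin, an armadillo protein found in both adherens junctions and desmosomes. It was at 35.8 on STIM1KO TAC, 47.9 on STIM1KO sham, 45.0 on WT TAC and 56.6 on WT sham. STIM1KO TAC was lowest and WT sham highest, and the highest was 1.58-fold the lowest. Jup was lower after TAC, at -0.42 in STIM1KO and -0.33 in WT, and lower in STIM1KO, at -0.33 after TAC and -0.24 after sham surgery. It did not reach 1.5-fold in any comparison, and the 2 responses to TAC differed by only -0.09.

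Pkp2 encodes plakophilin 2, the main plakophilin of heart muscle, which clusters desmoplakin at the plaque. Its intensity was 495 on STIM1KO TAC, 314 on STIM1KO sham, 323 on WT TAC and 365 on WT sham. STIM1KO TAC stood above the other 3. The difference was 0.66 between STIM1KO TAC and STIM1KO sham (1.58-fold) and 0.61 between the TAC arrays (1.53-fold). The other comparisons went the opposite way, at -0.17 between WT TAC and WT sham and -0.22 between the sham arrays. The first was 0.57, under 1.5-fold, with median centring. Between the TAC arrays it was 0.54 when arrays were centred on their medians, and 0.55 with deposited values.

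Dsp encodes desmoplakin, which ties the plaque to desmin. It was at 1283 on STIM1KO TAC, 1250 on STIM1KO sham, 1130 on WT TAC and 1157 on WT sham. Both STIM1KO arrays were above both WT arrays, but the highest was only 1.14-fold the lowest. The genotype differences were 0.18 after TAC and 0.11 after sham surgery. The responses to TAC were 0.04 in STIM1KO and -0.03 in WT, and each changed sign with median centring.

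Dsg2 and Dsc2 encode desmoglein 2 and desmocollin 2, the desmosomal cadherins of heart muscle, whose genes lie in the same cluster with 6 other protein-coding genes between them. Dsg2 was at 64.5 on STIM1KO TAC, 74.0 on STIM1KO sham, 60.1 on WT TAC and 50.7 on WT sham. Between the sham arrays it was higher in STIM1KO by 0.55 (1.46-fold), at percentile 98.3 of the filtered genes, and between the TAC arrays by 0.10. Its responses to TAC were -0.20 in STIM1KO and 0.24 in WT.

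Dsc2 was at 54.1 on STIM1KO TAC, 74.1 on STIM1KO sham, 91.3 on WT TAC and 111 on WT sham. Both STIM1KO arrays were below both WT arrays, and the highest value was 2.04-fold the lowest, a span wider than in 94.6% of the filtered genes and the widest among the 9 filtered disc genes. Dsc2 was lower in STIM1KO, at -0.75 after TAC (1.69-fold) and -0.58 after sham surgery (1.49-fold), at percentiles 3.8 and 2.9. The sham value was just under 1.5-fold, and past it at -0.62 with deposited values. After TAC it was lower in both genotypes, at -0.45 in STIM1KO and -0.28 in WT. Of the filtered genes, 111 (1.58%) were lower by 0.5 or more in both genotype comparisons. That cut is not one of the call sizes, and the sham value of Dsc2 passes it but not 1.5-fold. The share is therefore no evidence that Dsc2 is unusual. Dsc2 had the same order of arrays as Stim1, which 10.2% of filtered genes had, and the same order as the summed endothelial and fibroblast markers. The endothelial sum leaned on its brightest gene, Egfl7, which was at 1921 on WT TAC and 1844 on WT sham, unlike that order. In the WT response 4 of the 9 filtered endothelial markers were higher and 5 lower, and in the STIM1KO response 2 were higher and 7 lower. The fibroblast sum leaned on its brightest gene, Dcn. Dcn was at 1433 on STIM1KO TAC, 2406 on STIM1KO sham, 2879 on WT TAC and 3279 on WT sham. Dcn differed by -0.75 in the STIM1KO response, where 3 of the 8 filtered fibroblast markers were higher and 5 lower (median -0.03). Their median was -0.10 in the WT response, -0.21 between the sham arrays and -0.12 between the TAC arrays. Whether endothelial cells or fibroblasts had a part in the values of Dsc2 was not tested. In such bulk tissue, fewer cells of a type and less RNA per cell cannot be told apart.

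Dsc2 and Dsg2 therefore stood on opposite sides of 0 in both genotype comparisons, and so did Dsc2 and the classical cadherin Cdh2. Among the plaque proteins, Pkp2 and Jup stood on opposite sides between the TAC arrays and in the STIM1KO response, and on the same side in the other 2 comparisons.

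**Figure D2:**
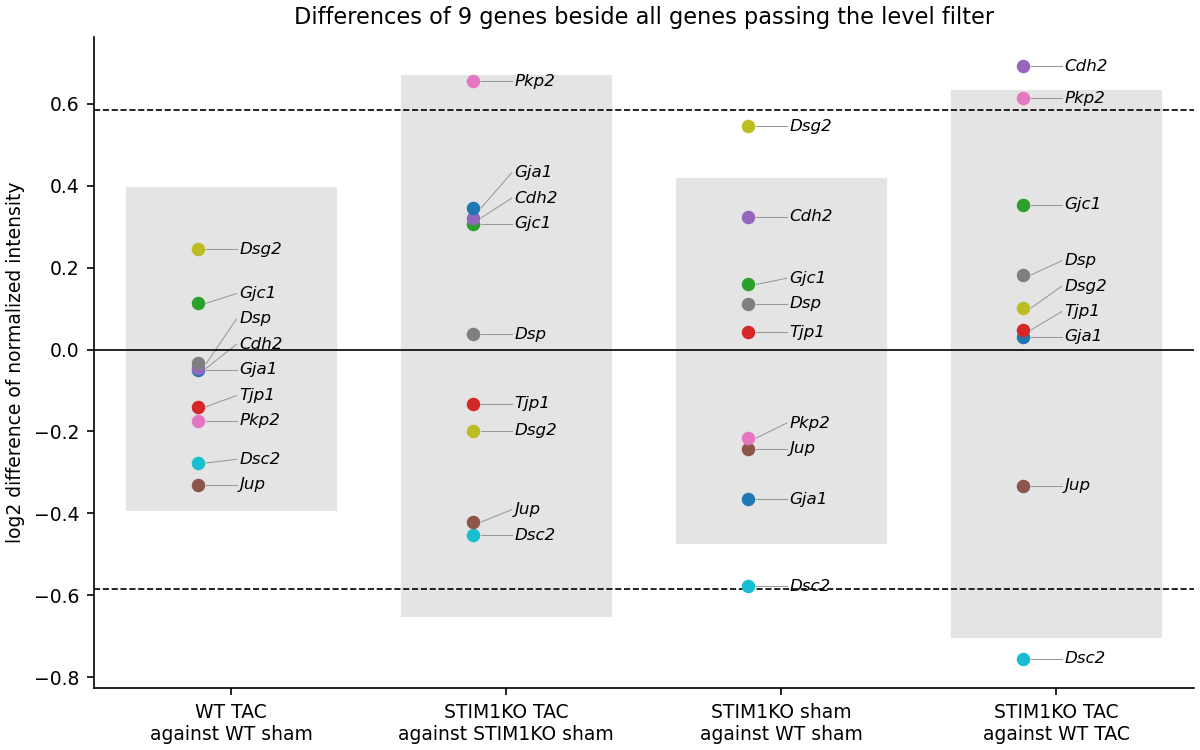
Log2 differences of the 9 disc genes that passed the level filter (points) in the 4 comparisons of 2 arrays. Grey boxes span the 5th to the 95th percentile of all 7020 filtered genes and dashed lines mark 1.5-fold. The boxes are wider in the 2 comparisons with the STIM1KO TAC array, and only Cdh2 and Dsc2 between the TAC arrays and Dsg2 and Dsc2 between the sham arrays lie outside them.

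In no comparison of 2 arrays did more than 3 of the 9 disc genes reach 1.5-fold, and none reached 2-fold. Between WT TAC and WT sham, none of the 9 reached 1.5-fold, where 1.55% of all filtered genes were higher and 1.3% lower by that much. Of the 9, 2 were above 0 and 7 below, from -0.33 for Jup to 0.24 for Dsg2. That split rests on the scaling: Gja1, Cdh2 and Dsp were above 0 under median centring and on the deposited scale, which makes it 5 above and 4 below. Their median was -0.05, beside -0.01 over all filtered genes. It was 0.014 beside 0.004 under median centring, and 0.045 beside 0.035 on the deposited scale. Of the filtered genes, 0.313% reached 2-fold in either direction.

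Between STIM1KO TAC and STIM1KO sham, Pkp2 was the 1 gene of 9 at 1.5-fold higher, beside 7.31% of filtered genes, and none was lower by as much, beside 7.11%. Here 5 disc genes were higher and 4 lower, or 4 higher and 5 lower under median centring. Their median was 0.04, beside -0.004 over all filtered genes, and none was at 2-fold, beside 1.85%. Gja1, Gjc1 and Cdh2 were close together at 0.31 to 0.35, and Jup and Dsc2 lay at -0.42 and -0.45. The SD of the differences over all filtered genes was 0.42 in this comparison and 0.25 between the WT arrays.

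Between STIM1KO sham and WT sham, none of the 9 reached 1.5-fold, beside 1.23% of filtered genes higher and 2.74% lower, and none reached 2-fold, beside 0.556%. Again 5 of the 9 were higher and 4 lower, and their median was 0.04, beside 0.0006 over all filtered genes. With deposited values or the mean over probes, 4 were higher and 5 lower. The extremes were Dsg2 at 0.55 and Dsc2 at -0.58, both outside the range from -0.47 to 0.42 that held the middle 90% of filtered genes.

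Between STIM1KO TAC and WT TAC, 2 of 9 genes, Cdh2 and Pkp2, were at 1.5-fold higher, beside 6.31% of filtered genes, and 1, Dsc2, was at 1.5-fold lower, beside 8.22%. None was at 2-fold, beside 1.97%. Of the 9, 7 were above 0 and 2 below, Jup and Dsc2, and the median was 0.10 beside 0.01. Gja1, at 0.03, fell below 0 under median centring and on the deposited scale, which makes it 6 above and 3 below. Gjc1 counts here by its brighter probe, and its dimmer probe was at -0.19. All 9 filtered endothelial markers were below 0 in this comparison, with a median of -0.62, and the 8 filtered myocyte markers had a median of -0.05. The part of these cell types in the values of the disc genes was not tested.

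Subtracting the WT response to TAC from the STIM1KO response left Pkp2 alone at 1.5-fold, at 0.83 and percentile 97.0 of the filtered genes. This was 1 of 9 higher, beside 8.15% of filtered genes, and none of 9 lower, beside 5.94%. None was at 2-fold, beside 2.15%. Gja1 followed at 0.40 and Cdh2 at 0.37, and Dsg2 was lowest at -0.44. The value of Pkp2 stayed between 0.72 and 0.87 over the 6 settings of normalization, offset and probe choice.

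The 2 genotype comparisons share no array, and 7 of the 9 genes had the same sign in both, beside 62.2% of filtered genes. Gja1 and Pkp2 were the exceptions, each lower in STIM1KO sham than in WT sham. Under median centring Gja1 joined the 7, and on the deposited scale Gja1 was among the 7 and Tjp1 was not. With the mean over probes Gjc1 dropped out, which made it 6 of 9, beside 62.1%. The 2 responses to TAC share no array either, and 4 of 9 genes, Gjc1, Jup, Dsc2 and Tjp1, had the same sign in both, beside 60.3% of filtered genes. Under median centring it was 6 of 9, with Gja1 and Cdh2 added, beside 59.1%, and on the deposited scale 7 of 9, with Dsp too, beside 60.9%. The count thus lies on either side of the share of all genes, depending on the scaling.

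**Figure D3:**
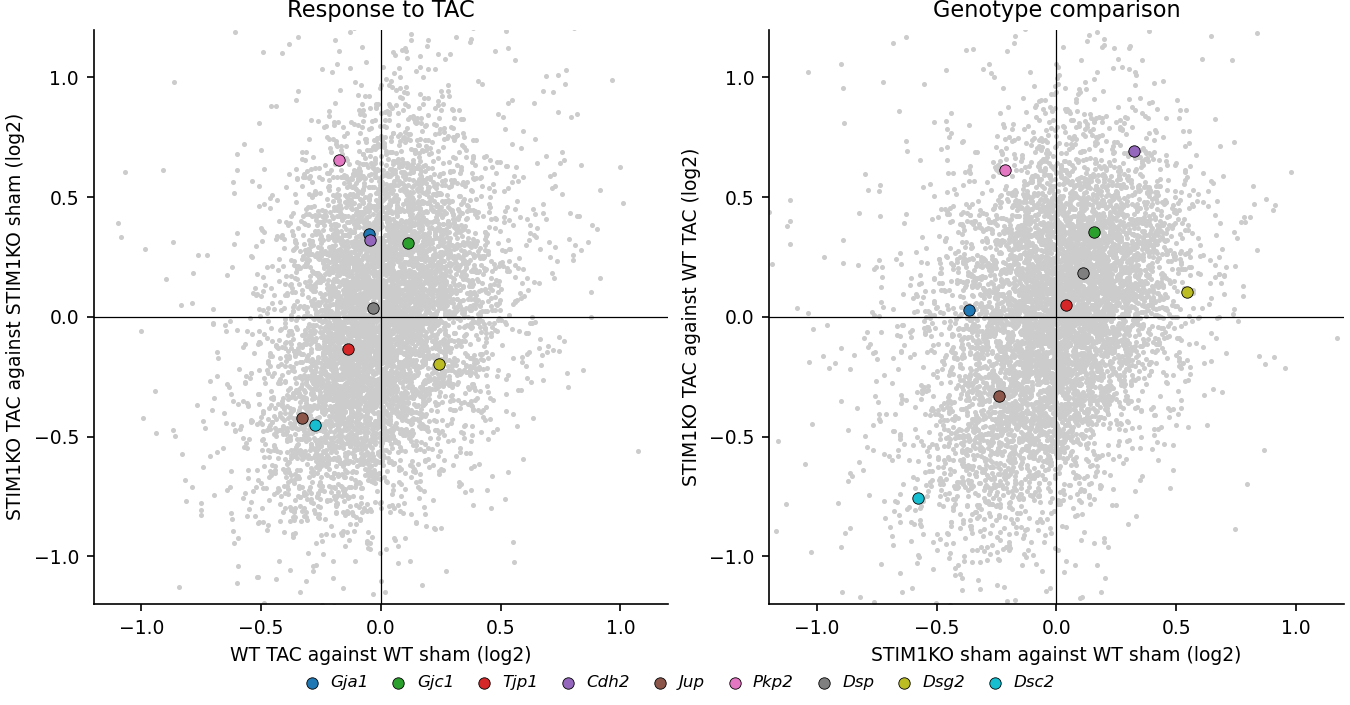
Left, the response to TAC in STIM1KO (vertical) against that in WT (horizontal). Right, STIM1KO against WT after TAC (vertical) and after sham surgery (horizontal), all as log2 differences. Grey points are all filtered genes, of which 64 on the left and 68 on the right lie beyond the axes. Coloured points are the 9 disc genes, with Pkp2 at the upper left of both panels and Dsc2 at the lower left of both.

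Cdh2, Pkp2, Dsp and Gjc1 (by its brighter probe) were highest on STIM1KO TAC, and Jup and Dsc2 lowest. With median centring Dsp was instead highest on STIM1KO sham. None of the 9 filtered disc genes was highest on the WT TAC array, the one with the highest heart weight over body weight, beside 16.9% of filtered genes. The dimmer probe of Gjc1, which does not stand for the gene, was highest on WT TAC, at 137. Cdh2, Dsp and Tjp1, 3 of the 9, were lowest on WT TAC, beside 19.2% of filtered genes. Under median centring and on the deposited scale Gja1 was highest on WT TAC, and of those 3 only Tjp1 was lowest there. STIM1KO TAC was also the highest array for 37.5% and the lowest for 36.2% of all filtered genes, and it correlated least with the others, at 0.963 to 0.974 across genes, where the other 3 correlated at 0.987 to 0.990. Genes are not independent replicates.

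A wider list of 48 genes of cell junctions and the disc held 21 that passed the filter. A further 13 were under its level, 5 lacked a value on an array and 9 had no probe here. Between STIM1KO TAC and WT TAC, 16 of the 21 were higher, and their median was 0.24, beside 0.01 over all filtered genes. The median was 0.15 under median centring, beside -0.047 over all filtered genes. On the deposited scale it was 0.16, beside -0.042, and with no level filter 0.15, beside 0.027 over all genes. At 1.5-fold higher were Pard3, a cell polarity scaffold, at 0.86, Des, the desmin filament that desmosomes anchor, at 0.71, and Ctnna3, the alpha-T-catenin of heart muscle that also binds plakophilin 2, at 0.62. Vcl (vinculin) and Nrap, both on the actin side of the adherens junction, differed by 0.51 and 0.50. The one gene at 1.5-fold lower was Gja4, which encodes the endothelial connexin Cx37, at -0.60, in the comparison with the low endothelial markers given above. These were 3 of 21 higher, beside 6.31% of filtered genes, and 1 of 21 lower, beside 8.22%. Of these 4, only Pard3 stayed at 1.5-fold under every normalization, offset and probe setting. Des was at 0.58 and Ctnna3 at 0.53 with median centring, and Gja4 at -0.51 with an offset.

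Des, like Pkp2, was highest on STIM1KO TAC. It was at 1688 on STIM1KO TAC, 1286 on STIM1KO sham, 1032 on WT TAC and 1290 on WT sham. It differed by 0.39 in the STIM1KO response and -0.32 in the WT response, a difference of 0.72 (0.51 under median centring), beside 0.83 for Pkp2. In this difference of the 2 responses the median of the 21 was 0.21, beside -0.019 over all filtered genes. It was 0.051 under median centring, beside -0.102 over all filtered genes, and 0.086 with no level filter, beside 0.0045 over all genes. There Pard3 was at 0.88, F11r, a tight junction adhesion molecule, at 0.68, Gja4 at -0.74 and Tmem65, a protein of the disc that binds Cx43, at -0.60 (-0.56 with quantile normalization over each array's own probes). With Des, these were 3 of 21 at 1.5-fold higher, beside 8.15% of filtered genes, and 2 of 21 lower, beside 5.94%.

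In the STIM1KO response Pard3 was higher by 1.03, the 1 gene of 21 at 2-fold, where 1.85% of filtered genes were, and Gja4 lower, at -0.81. At 1.5-fold this was 1 of 21 higher, beside 7.31%, and 1 of 21 lower, beside 7.11%. The median of the 21 was 0.23, beside -0.004 over all filtered genes. It was 0.15 with median centring, beside -0.074, and 0.15 with no level filter, beside 0.011 over all genes. Pard3 was at 56.9 on STIM1KO TAC, and at 27.9 on STIM1KO sham, 31.3 on WT TAC and 28.3 on WT sham. Between the sham arrays Tmem65 was higher in STIM1KO by 0.70 and Xirp2, a Xin repeat protein of the disc, by 0.68, with a median of 0.03 over the 21. These 2 of 21 stood beside 1.23% of filtered genes higher by 1.5-fold, and none of 21 was lower, beside 2.74%. In the WT response none of the 21 reached 1.5-fold, beside 1.55% higher and 1.3% lower. There Ctnna1, the other alpha-catenin of the list, was lowest at -0.44 and Tmem65 highest at 0.39, and the median was 0.02.

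**Figure D4:**
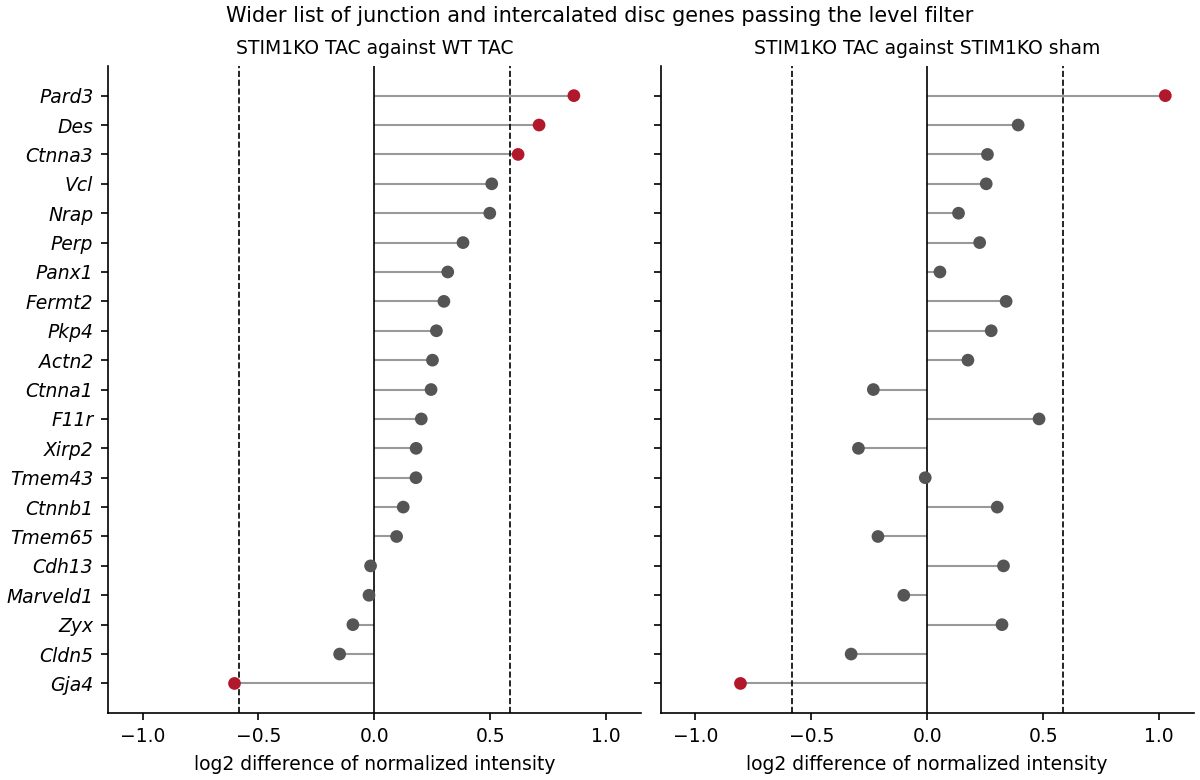
Log2 differences of the 21 filtered genes of the wider list between STIM1KO TAC and WT TAC (left) and between STIM1KO TAC and STIM1KO sham (right), ordered by the left panel. Dashed lines mark 1.5-fold and red points lie at or beyond it: Pard3, Des, Ctnna3 and Gja4 on the left, Pard3 and Gja4 on the right.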

How the data were processed

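The deposited table holds the authors' linear intensity for each probe, with a median of about 20 on each array. Cy5 was coupled to amino allyl aRNA, per the labels' protocols. How arrays were scanned, background-corrected and scaled, and why cells are empty, is not stated in the labels or the table. Of 23473 probes, 19607 had a value on all 4 arrays, and only these were used. Log2 values were quantile normalized (limma 3.58.1, R 4.3.3), because array medians spread over 0.101. Symbols came from the platform annotation, updated through synonyms in a GRCm38.p6 gene table (16569 of 16631 named probes then matched). The probe with the highest mean stood for a gene, which left 14039 genes, and the filter kept those at or above their median level. No paper was used.

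The disc genes, the wider list and the markers were chosen with earlier results of these data known. Of the wider list, the filtered genes at 1.5-fold were named. Vcl, Nrap and Ctnna1 fall outside this rule and were picked once their values were known. The calculation of the differences was tested on simulated data with known folds, which tests none of the differences reported here. Alternatives were median centring, values as deposited, an offset of 5.49, the mean over probes, no level filter, and a filter at the 75th percentile. Quantile normalization over each array's own probes was added after seeing the data.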

Additional observations from a re-analysis of the deposited data

Results flagged for a closer look

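With 1 array a group, a gene was taken here when the same contrast had opposite signs in both genotypes or after both operations, and none of these differences was tested. Pkp2 had opposite responses to TAC and opposite genotype differences, and the STIM1KO response minus the WT response was 0.83. Gja1 had opposite signs in both ways too, with a difference of responses of 0.40, though its WT response and its difference between the TAC arrays were near 0. The responses to TAC were also opposite for Cdh2 (difference 0.37), Dsg2 (-0.44) and Dsp (0.07). Among these, the WT responses of Gja1, Cdh2 and Dsp changed sign with median centring and with deposited values. The STIM1KO response of Dsp changed sign too with median centring. Its difference of responses was then -0.07, and -0.0001 with deposited values, so its direction is not settled.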

How the results depend on the processing

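No paired analysis was possible because each group has 1 array. Single arrays allow no leaving out of replicates. Dim probes such as Gja5 limit what can be read from signal near background. A shift in a median was counted as a change from 0.1 (log2) up, and a count when it moved by more than 1.5 times. Of the values of the 10 disc genes, none that was at 1.5-fold or more changed sign under the settings that kept the level filter at the median.

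The number of disc genes at 1.5-fold in the STIM1KO response, 1 as reported, was 0 with median centring and 2 with no level filter, which adds Gja5. In the difference of responses it was likewise 2 with no filter. Between the sham arrays it was 1 (Dsc2) with the values as deposited and with quantile normalization over each array's own probes, where Dsc2 was at -0.61. That normalization was chosen after seeing the data. Between the TAC arrays the count was 3 as reported, 2 with median centring or on the deposited scale, where Pkp2 drops out, and 4 with no filter. With the filter at the 75th percentile only 5 disc genes were left, and their median was 0.32 in the STIM1KO response, 0.35 for the TAC arrays and 0.37 for the difference of responses.

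The filter also changes how many genes enter, 14039 without it and 3510 at the 75th percentile. In the order WT response, STIM1KO response, sham arrays, TAC arrays and difference of responses, the counts at 1.5-fold were 1363, 3215, 1645, 3205 and 3611 with no filter, and 78, 431, 132, 413 and 413 at the 75th percentile. The counts at 2-fold were 292, 816, 375, 756 and 1206, and 7, 52, 20, 46 and 61.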
